A study of Mus musculus with 6 samples.

Results

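The 50 genes described here carry out DNA replication and supply its nucleotides, and their expression was compared between cultured calvarial preosteoblasts of mice with and without a Cre transgene directed at Nell2. Members were chosen by gene symbol for their roles in origin licensing, helicase activation, DNA synthesis, deoxynucleotide production and the assembly of chromatin behind the fork, and all 50 were found among the 17001 genes of the deposited expression table. Preosteoblasts are precursors of the bone-forming osteoblasts, and those used here were primary cells of the calvaria, the skull vault. The mice were 3 days old, and the cells were grown in serum-containing α-MEM. The 3 control libraries came from NELL2 fx/fx mice, whose Nell2 alleles are flanked by loxP sites, and the 3 conditional knockout (cKO) libraries from Col1-cre; NELL2 fx/fx mice, which carry the same floxed alleles and a Cre recombinase driven by a fragment of the mouse Col1a1 promoter, so that deletion is limited to cells in which that promoter is active. The comparison addressed how deletion of NELL2, a secreted glycoprotein, alters gene expression in these cells. Expression was given as FPKM, a count of fragments scaled by transcript length and by the mapped fragments of the library. Nothing in the labels tells whether the libraries of a group came from separate animals or cultures, so p-values measure the spread between these libraries. Each group held libraries with and without Y-linked expression, so its libraries were not all repeats of a single sample. Part of the spread may still be technical.

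A cell copies its genome once in each cycle. During G1 the origin recognition complex (Orc1 to Orc6), Cdc6 and Cdt1 load the Mcm2-to-Mcm7 helicase onto origins, and geminin (Gmnn) later blocks Cdt1 so that no origin is loaded again. In S phase Cdc45 and the GINS complex turn the loaded helicase into a moving fork, primase and the polymerases alpha, delta and epsilon make DNA, and ribonucleotide reductase and thymidine kinase feed them deoxynucleotides. Many of these genes are transcribed in late G1 and S phase under E2F transcription factors, so in growing cells such as cultured preosteoblasts their mRNA commonly tracks the share of cells that are cycling. In bulk RNA, fewer cycling cells and less of these mRNAs per cell cannot be told apart.

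The promoters of the members are shown first, because E2F sites are a well known shared feature of such genes. Windows from 250 bases before to 50 bases after the annotated transcription start were taken from RefSeq (GRCm38.p6) and were found for 42 of the 50 members. Gmnn, Mcm4, Gins1, Gins2, Gins4, Prim2, Pole and Rfc2 were not matched. Letters of E2F sites were searched on both strands as TTTCCCGC, TTTGGCGC, TTTCGCGC and TTTGCCGC, with overlapping matches, and overlaps between motifs, allowed. They occurred in 17 of 42 members (40.5%), in 4.87% of the 9239 tested genes that had a window (members included), and in 2.6% of all 27025 genes with a window. The stretch upstream of the Mcm5 start, chr8:75109259-75109508 on the plus strand, is printed 5′ to 3′ with the matched letters in capitals, since Mcm5 had the lowest cKO level relative to control within the Mcm helicase and its 2 matches, at positions -153 and -149 from the start, overlap on opposite strands.

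Mcm5: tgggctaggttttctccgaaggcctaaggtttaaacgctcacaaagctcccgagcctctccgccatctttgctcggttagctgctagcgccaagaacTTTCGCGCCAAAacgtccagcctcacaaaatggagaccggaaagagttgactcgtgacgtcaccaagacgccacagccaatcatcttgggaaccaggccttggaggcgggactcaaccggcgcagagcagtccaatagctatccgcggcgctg

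Shorter stretches of 40 bases around the first match are printed for members of licensing, helicase activation, DNA synthesis and chromatin, to show how the same letters recur from licensing to DNA methylation. Each is written 5′ to 3′ along the gene's own strand with the matched letters in capitals. The Mcm6 stretch (chr1:128359792-128359831, minus strand) holds overlapping matches at -110 and -106, and a further match lies at -47. Orc1 (chr4:108579411-108579450, plus strand) has its match at -27 and Cdc6 (chr11:98907997-98908036, plus strand) at -138. Mcm7 (chr5:138172025-138172064, minus strand) was matched at -165, Gins3 (chr8:95633502-95633541, plus strand) at -41 and Pola1 (chrX:93632270-93632309, minus strand) at -138. For the chromatin members Uhrf1 (chr17:56304112-56304151, plus strand) and Dnmt1 (chr9:20952819-20952858, minus strand) the first matches lie at -185 and -219. Mcm7 and Uhrf1 had 2 windows and Dnmt1 had 3, and only 1 window of each held the letters. Positions are counted from the start of that window.

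Mcm6: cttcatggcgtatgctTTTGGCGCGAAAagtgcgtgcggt

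Orc1: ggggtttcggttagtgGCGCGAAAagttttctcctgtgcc

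Cdc6: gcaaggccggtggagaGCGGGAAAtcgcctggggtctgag

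Mcm7: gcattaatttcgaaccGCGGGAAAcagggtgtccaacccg

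Gins3: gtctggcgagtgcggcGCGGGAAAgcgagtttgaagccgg

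Pola1: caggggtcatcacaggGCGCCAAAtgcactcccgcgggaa

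Uhrf1: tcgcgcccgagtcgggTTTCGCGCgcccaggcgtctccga

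Dnmt1: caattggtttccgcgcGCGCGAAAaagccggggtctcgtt

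The remaining members with E2F letters were Orc3, Cdt1, Mcm3, Pold1, Pold3, Pole2, Rfc3 and Lig1. Of these remaining members, only Mcm3 and Lig1 were lower in cKO at an unadjusted p under 0.05. Every member with a printed stretch was lower at that threshold, so the printed stretches do not represent all members with the letters. The CCAAT box letters CCAAT were present in 26 member promoters (61.9%, against 43.5% of tested genes), the GC box letters GGGCGG in 33 (78.6% against 70.8%) and the letters TTTGAA of the cell cycle homology region in 6 (14.3% against 14.2%). For a contrast within the cell cycle, 25 genes of mitosis had a window, and of these 1 held E2F letters (4%) while 18 held TTTGAA (72%). Such matches describe letters only and do not show that a factor was bound.

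The targeted gene was examined in every library first. Nell2 stood at 3.17, 2.59 and 1.88 FPKM in the control libraries and at 5.64, 1.61 and 5.74 FPKM in the cKO libraries, and the groups overlapped, with no lower Nell2 mRNA under the cKO label (log2 fold change 0.48, SE 0.37, limma adjusted p = 0.591). All directions below therefore refer to the libraries as labelled. The values were given per gene and not by exon, so a transcript that lacks the floxed part cannot be told apart from a full one. Y-linked genes were expressed in control replicate 3 and in cKO replicates 1 and 3 and were near 0 in the other libraries. Osteoblast lineage markers were present throughout, their summed level being 17659.83 to 18505.85 FPKM in control and 18116.1 to 18333.66 FPKM in cKO libraries, largely from collagen genes, and 0 of 8 had an adjusted p under 0.05. At an unadjusted p under 0.05, 4 of 8 (Sp7, Alpl, Ibsp and Bglap) were lower in cKO, against 7.76% of all tested genes, while log2 fold changes were -0.21 for Runx2, -0.01 for Col1a1, 0.04 for Col1a2 and 0.12 for Spp1. Epithelial markers were higher in mean in 5 of 5 genes in cKO, with a sum of 5.81 to 16.32 FPKM in control and 24.22 to 46.18 FPKM in cKO libraries, and cartilage markers in 5 of 5, with overlapping sums of 99.22 to 168.44 and 153.74 to 178.88 FPKM. For macrophage markers 7 of 8 genes were higher in mean in cKO, the sums being 7.03 to 16.04 and 10.47 to 17.11 FPKM, whereas endothelial (1.84 to 3.87 and 1.84 to 3.4 FPKM) and skeletal muscle sums (29.81 to 55.79 and 40.92 to 47.57 FPKM) overlapped too. Of all tested genes, 55.8% had a log2 fold change below 0. At an unadjusted p under 0.05, 3 of 4 tested epithelial and 3 of 5 cartilage markers were higher, against 5.37% of all tested genes. For macrophage, endothelial and skeletal muscle markers this number was 0, and 0 markers of these lists had an adjusted p under 0.05. Krt19 was higher in mean only through cKO replicate 3, at 8.28 FPKM. No marker of these lists was under 0.1 FPKM in every library, and the part of other cell types in the results was not tested.

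The replication genes were lower in mean in the cKO libraries across most steps, yet none passed the test. With limma and Benjamini-Hochberg adjustment over 11590 tested genes, 0 of 50 members had an adjusted p under 0.05, as was the case for 0% of all tested genes, the smallest adjusted p being 0.312. The log2 fold change of cKO against control was below 0 in 46 of 50 members (92%, against 55.8% of tested genes), with a median of -0.33 beside -0.02 over all tested genes. At an unadjusted p under 0.05, 29 members (58%) were lower and 0 were higher, where 7.76% of all tested genes were lower and 5.37% higher. Every cKO library lay below every control library in 27 members (54%, against 11.8% of tested genes) and above in 0 (against 6.51%). The members are coregulated genes of the same 6 libraries and do not count as independent observations of this difference.

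Among the 29 members with an unadjusted p under 0.05, the cKO mean was 53.2% to 86.5% of the control mean and limma adjusted p ranged from 0.312 to 0.363. Groups overlapped in 3 of them, Cdc45, Gins3 and Rrm2. The other 21 members had log2 fold changes from -0.33 to 0.14, and only Pold2 of these had separate groups. By level, the members ran from Orc1 with a mean of 1.42 FPKM over 6 libraries to Pcna with 74.4 FPKM, with a median of 9.55 FPKM, above 35.0% to 93.5% of all genes in the table. Fold changes of the members near 1 FPKM are understated by the pseudocount of 1.

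**Figure D1:**
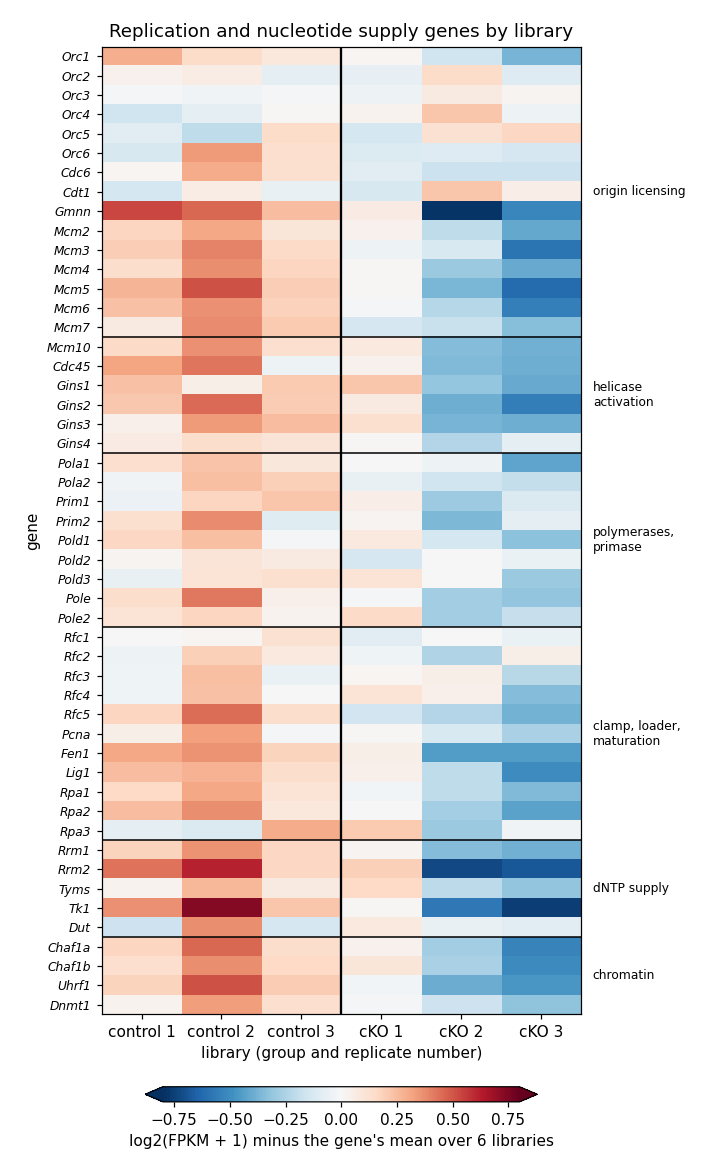
Heat map of the 50 members (vertical axis, in 6 role groups) in the 6 libraries (horizontal axis), coloured by log2(FPKM + 1) minus the gene's mean over the libraries. Most members are above their mean in the 3 control libraries and below it in cKO replicates 2 and 3, while cKO replicate 1 lies near the mean. Orc2, Orc3, Orc4, Orc5, Cdt1, Rfc3, Rpa3 and Dut are among the members that do not follow this order.

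Origin licensing held both members well below control in mean and members with a fold change near 0. Of its 15 members, 9 were lower at an unadjusted p under 0.05 and 6 were not, with a median log2 fold change of -0.35 and 4 members above 0. The Mcm helicase, which unwinds the DNA, was lower in mean in 6 of 6 subunits, none of which passed the test at an adjusted p under 0.05. In each of the 6 every cKO library lay below every control library, with a median log2 fold change of -0.48. Mcm5 stood at 10.35, 12.38 and 9.77 FPKM in control and at 8.48, 6.29 and 5.14 FPKM in cKO libraries. Its mean was 10.8 ± 1.37 FPKM (SD, n = 3) against 6.64 ± 1.70 FPKM, 61.3% of control, which gave a log2 fold change of -0.65 (SE 0.17, limma adjusted p = 0.312). The lowest control library thus exceeded the highest cKO library by more than 1 FPKM in a gene whose promoter is printed above.

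Mcm6 was at 22.37, 24.56 and 21.57 FPKM in control and at 18.72, 15.99 and 12.62 FPKM in cKO libraries (log2 fold change -0.52, SE 0.14). Mcm3 was at 13.76, 15.99 and 13.33 FPKM against 11.53, 10.81 and 7.58 FPKM (-0.50, SE 0.15). In both the order of the cKO libraries was the same, with replicate 1 highest and replicate 3 lowest. For Mcm4 the values were 13.53, 16.02 and 13.84 FPKM against 12.25, 9.73 and 8.95 FPKM (-0.46, SE 0.12). Mcm7 had 21.44, 26.81 and 23.67 FPKM against 18.43, 17.87 and 15.86 FPKM (-0.44, SE 0.10), and Mcm2 had 13.60, 15.04 and 12.83 FPKM against 12.28, 10.27 and 8.74 FPKM (-0.38, SE 0.12). The 6 subunits form 1 ring in equal numbers, and their control means ran from 10.8 FPKM for Mcm5 to 24.0 FPKM for Mcm7, a 2.21-fold range. Limma adjusted p was 0.312 for each of the 6.

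Gmnn, the inhibitor of licensing, was furthest below control among the licensing genes, while its target Cdt1 had a slightly higher mean in cKO. Gmnn was at 12.59, 11.90 and 10.11 FPKM in control and at 8.80, 4.45 and 5.53 FPKM in cKO libraries, a mean of 11.5 ± 1.28 against 6.26 ± 2.27 FPKM (SD, n = 3) and 54.3% of control (log2 fold change -0.83, SE 0.21, limma adjusted p = 0.312). Cdt1, which brings the helicase to origins, was at 7.74, 9.04 and 8.22 FPKM against 7.81, 10.21 and 8.97 FPKM (log2 fold change 0.09, SE 0.10, limma adjusted p = 0.704). The ratio of Gmnn to Cdt1 within a library was 1.627, 1.316 and 1.23 in control and 1.127, 0.436 and 0.616 in cKO, a mean of 1.39 ± 0.21 and 0.73 ± 0.36. This ratio was formed after the values were seen and was not tested. Cdt1 protein is mainly controlled by geminin and by proteolysis, which mRNA levels do not show.

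The origin recognition complex was lower in mean in its Orc1 subunit and had fold changes near 0 in most others. Orc1, the subunit whose amount is regulated through the cycle, was at 1.93, 1.65 and 1.54 FPKM in control and at 1.42, 1.15 and 0.85 FPKM in cKO libraries (log2 fold change -0.34, SE 0.11, limma adjusted p = 0.312). Orc2, Orc3, Orc4 and Orc5 had log2 fold changes of -0.01, 0.04, 0.14 and 0.10, with a median of 0.07 and limma adjusted p between 0.505 and 0.955. The levels of Orc3 were nearly flat, at 18.56, 18.37 and 18.69 FPKM in control and 18.28, 19.83 and 19.07 FPKM in cKO, although its promoter holds E2F letters as that of Orc1 does. Orc6 was at 11.19, 15.86 and 13.64 FPKM against 11.33, 11.37 and 11.13 FPKM, and here control replicate 1 lay within the cKO values (log2 fold change -0.23, limma adjusted p = 0.431). Cdc6, the loading factor that joins Orc1 at origins, was at 1.56, 2.11 and 1.77 FPKM against 1.38, 1.25 and 1.25 FPKM (-0.29, SE 0.08, limma adjusted p = 0.312). Within the complex, control means ran from 1.71 FPKM for Orc1 to 18.5 FPKM for Orc3, a 10.9-fold range.

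**Figure D2:**
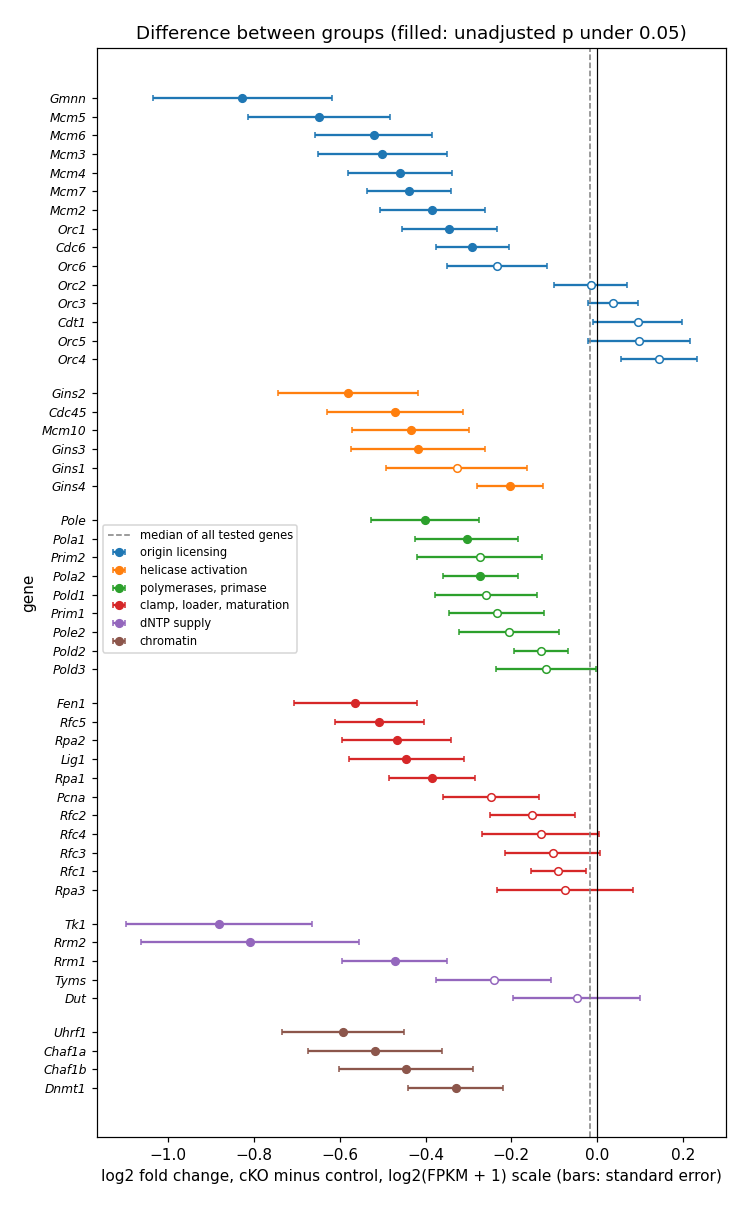
Log2 fold change of each member, cKO minus control on the log2(FPKM + 1) scale (horizontal axis), with bars for the limma standard error, grouped by role (vertical axis). Filled points have an unadjusted p under 0.05; the dashed line is the median of all tested genes (-0.02), and Tk1, Gmnn and Rrm2 lie furthest to the left.

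Genes that activate the helicase were lower in mean in 6 of 6 members, with a median log2 fold change of -0.43, and 5 of 6 had an unadjusted p under 0.05. Gins2, a GINS subunit, was at 24.28, 28.73 and 24.00 FPKM in control and at 21.82, 15.59 and 13.84 FPKM in cKO libraries (log2 fold change -0.58, SE 0.16, limma adjusted p = 0.312). Mcm10, which helps the helicase start, was at 2.08, 2.56 and 2.04 FPKM against 1.92, 1.18 and 1.12 FPKM (-0.43, SE 0.14, adjusted p = 0.312). In both genes all cKO values lay below all control values, and cKO replicate 1 was the nearest to them. Cdc45, the partner of the helicase at the fork, was at 6.54, 7.14 and 4.88 FPKM against 5.18, 3.74 and 3.62 FPKM (-0.47, SE 0.16, limma adjusted p = 0.320), and control replicate 3 lay below cKO replicate 1. Gins3 overlapped in the same way through control replicate 1, with 2.11, 2.82 and 2.59 FPKM against 2.31, 1.34 and 1.31 FPKM (-0.42, SE 0.16, limma adjusted p = 0.342). Gins4 was at 24.76, 26.16 and 25.47 FPKM against 23.77, 19.97 and 22.37 FPKM (-0.20, SE 0.08, limma adjusted p = 0.348), the least difference of the group. Gins1 was at 4.45, 3.80 and 4.36 FPKM against 4.42, 2.74 and 2.50 FPKM, so cKO replicate 1 lay among the control values (-0.33, SE 0.16, limma adjusted p = 0.435). The GINS subunits act as 1 complex, but their control means ranged 10.2-fold, from 2.51 FPKM for Gins3 to 25.7 FPKM for Gins2.

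Polymerases and primase were lower in mean in 9 of 9 members by smaller amounts, with a median log2 fold change of -0.26, and 3 of 9 had an unadjusted p under 0.05. Pole, the catalytic subunit of polymerase epsilon on the leading strand, was at 1.93, 2.55 and 1.73 FPKM in control and at 1.64, 1.19 and 1.13 FPKM in cKO libraries (log2 fold change -0.40, SE 0.13, limma adjusted p = 0.312). Pola1, the catalytic subunit of polymerase alpha, was at 3.02, 3.30 and 2.91 FPKM against 2.67, 2.57 and 1.74 FPKM (-0.30, SE 0.12, limma adjusted p = 0.363). Its partner Pola2 was at 6.88, 8.47 and 8.17 FPKM against 6.68, 6.19 and 6.04 FPKM (-0.27, SE 0.09, limma adjusted p = 0.312). All cKO values of these 3 genes lay below all control values. Primase makes the RNA primers for polymerase alpha, and its subunits Prim1 and Prim2 had log2 fold changes of -0.23 and -0.27 with groups that overlapped. Prim2 was at 10.34, 12.48 and 8.72 FPKM against 9.55, 7.09 and 8.86 FPKM (SE 0.15, limma adjusted p = 0.458). Polymerase delta, which copies the lagging strand, had log2 fold changes of -0.26 for Pold1, -0.13 for Pold2 and -0.12 for Pold3 (limma adjusted p 0.403, 0.423 and 0.666), and Pole2 had -0.21 (limma adjusted p = 0.478). Pold2 differed little but evenly, at 17.15, 18.17 and 17.77 FPKM against 15.25, 16.79 and 16.21 FPKM without overlap.

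The sliding clamp, its loader, the single-strand binding protein and the enzymes that finish the lagging strand had a median log2 fold change of -0.25 over 11 members, all below 0, and 5 of 11 had an unadjusted p under 0.05. Fen1, the nuclease that trims Okazaki fragments, was at 8.75, 9.10 and 7.91 FPKM in control and at 7.14, 4.79 and 4.77 FPKM in cKO libraries (log2 fold change -0.56, SE 0.14). Lig1, the ligase that seals them, was at 12.58, 12.83 and 11.61 FPKM against 10.73, 8.94 and 7.06 FPKM (-0.44, SE 0.13). Both had a limma adjusted p of 0.312 and groups that did not overlap. Replication protein A, which covers single-stranded DNA, was lower in mean in Rpa1 and Rpa2, while the groups overlapped widely in Rpa3. Rpa2 was at 13.61, 14.95 and 12.08 FPKM against 11.35, 9.21 and 8.15 FPKM (-0.47, SE 0.13, limma adjusted p = 0.312), and Rpa1 was at 28.26, 31.41 and 27.23 FPKM against 24.73, 21.78 and 19.50 FPKM (-0.39, SE 0.10, limma adjusted p = 0.312). Rpa3 was at 38.36, 37.19 and 49.75 FPKM against 46.73, 32.70 and 39.57 FPKM, with cKO replicate 1 near the top (-0.08, limma adjusted p = 0.854). Its control mean of 41.8 FPKM was 3.08-fold that of Rpa2.

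Within the clamp loader, replication factor C, 1 of 5 subunits stood apart. Rfc5 was at 11.06, 13.62 and 10.79 FPKM in control and at 8.63, 8.11 and 7.25 FPKM in cKO libraries, 67.6% of control, with a small standard error (log2 fold change -0.51, SE 0.10, limma adjusted p = 0.312). Rfc1, Rfc2, Rfc3 and Rfc4 had log2 fold changes of -0.09, -0.15, -0.10 and -0.13, and limma adjusted p from 0.528 to 0.696. Control means of the loader subunits ran from 10.1 FPKM for Rfc4 to 30.4 FPKM for Rfc2, a 3.02-fold range. Pcna, the clamp itself and the most abundant member, was at 76.37, 93.11 and 73.49 FPKM against 74.27, 67.85 and 61.59 FPKM, with cKO replicate 1 just above control replicate 3 (-0.25, SE 0.11, limma adjusted p = 0.401). No test of the difference between subunits was run.

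Deoxynucleotide supply held the member with the lowest log2 fold change over all 6 libraries, Tk1, although Gmnn was lower without control replicate 2 (-0.80 against -0.73 for Tk1). Tk1 was also not the lowest without cKO replicate 1, without cKO replicate 3 or with a Y-linked covariate. Tk1, the thymidine kinase that salvages thymidine in S phase, was at 22.01, 28.66 and 19.77 FPKM in control and at 16.91, 10.98 and 9.56 FPKM in cKO libraries. The means were 23.5 ± 4.62 and 12.5 ± 3.90 FPKM (SD, n = 3), so the cKO mean was 53.2% of control (log2 fold change -0.88, SE 0.22, limma adjusted p = 0.312). Rrm2, the regulated small subunit of ribonucleotide reductase, was at 26.83, 30.64 and 22.11 FPKM against 22.52, 11.48 and 11.88 FPKM (-0.81, SE 0.25, limma adjusted p = 0.312). Control replicate 3 and cKO replicate 1 made the Rrm2 groups overlap, by less than 1 FPKM. The large subunit Rrm1 was at 30.80, 35.12 and 30.55 FPKM against 27.58, 21.11 and 20.49 FPKM without overlap (-0.47, SE 0.12, limma adjusted p = 0.312). Tyms, thymidylate synthase, was at 6.01, 7.27 and 6.24 FPKM against 6.70, 4.96 and 4.54 FPKM (-0.24, limma adjusted p = 0.474), and Dut, which removes dUTP, was at 8.05, 12.12 and 8.25 FPKM against 9.70, 8.74 and 8.55 FPKM (-0.05, limma adjusted p = 0.910). In both of these the groups overlapped.

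Some enzymes of this supply have partners that work outside S phase, and ratios within a library set the pairs side by side. These ratios were formed after the values were seen and were not tested. Rrm2 over Rrm2b, the small subunit that serves non-dividing cells, was 13.2, 15.6 and 9.53 in control and 9.15, 4.16 and 4.73 in cKO libraries. Tk1 over the mitochondrial kinase Tk2 was 2.87, 4.34 and 2.94 against 2.55, 1.33 and 1.29. In both pairs every cKO ratio was below every control ratio, with cKO replicate 1 nearest to control. Rrm2 over Rrm1 was 0.871, 0.872 and 0.724 against 0.817, 0.544 and 0.58, where the groups overlapped.

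**Figure D3:**
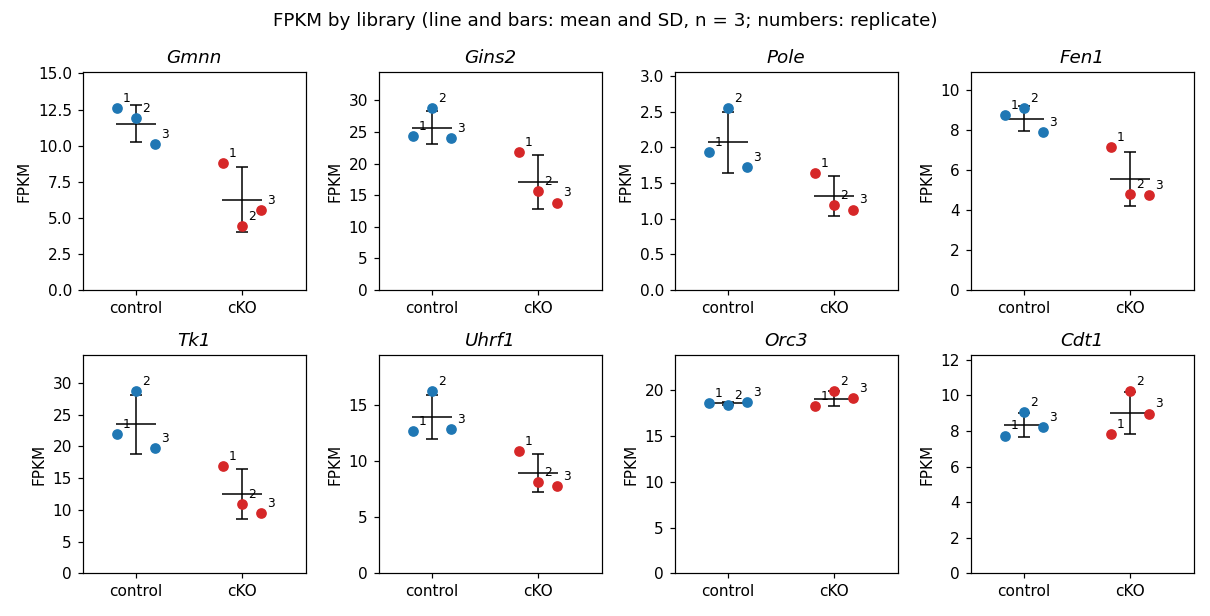
FPKM (vertical axes, from 0) of Gmnn, Gins2, Pole, Fen1, Tk1, Uhrf1, Orc3 and Cdt1 in control and cKO libraries (horizontal axis), with numbered points for replicates and lines with bars for mean and SD (n = 3). Tk1 lay between 19.77 and 28.66 FPKM in control and between 9.56 and 16.91 FPKM in cKO libraries, cKO replicate 1 was the highest cKO library in each of the first 6 genes, and Orc3 and Cdt1 overlapped between groups.

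Genes that rebuild chromatin behind the fork were lower in mean in 4 of 4 members, each with an unadjusted p under 0.05 and without overlap, and with a median log2 fold change of -0.48. Uhrf1, which reads hemimethylated DNA, was at 12.66, 16.20 and 12.89 FPKM in control and at 10.88, 8.17 and 7.74 FPKM in cKO libraries (log2 fold change -0.59, SE 0.14, limma adjusted p = 0.312). Dnmt1, the maintenance methyltransferase that Uhrf1 recruits, was at 17.72, 22.10 and 19.13 FPKM against 17.23, 15.34 and 13.71 FPKM (-0.33, SE 0.11, limma adjusted p = 0.317). The gap between groups was narrow for Dnmt1, from 17.23 to 17.72 FPKM. Chaf1a and Chaf1b, subunits of the histone chaperone CAF-1, had log2 fold changes of -0.52 (SE 0.16, limma adjusted p = 0.312) and -0.45 (SE 0.16, limma adjusted p = 0.327). Chaf1a was at 9.45, 11.72 and 9.22 FPKM against 8.49, 6.63 and 5.40 FPKM, and Chaf1b was at 8.47, 10.19 and 8.64 FPKM against 8.24, 6.22 and 5.06 FPKM.

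The libraries of a group were not alike in the level of these genes. Centred on each gene's mean over the 6 libraries, the median of the 50 members on the log2(FPKM + 1) scale took the values 0.13, 0.32 and 0.13 for the controls by replicate number, against 0.01, -0.22 and -0.34 for the cKO libraries. The same medians over all tested genes lay between -0.03 and 0.02. Control replicate 2 was the highest library in 38 of 50 members and cKO replicate 3 the lowest in 34. In 40 members cKO replicate 1 was above both other cKO libraries, and in 26 of those it was still below every control library, an intermediate position. Both cKO replicates 2 and 3 were below every control library in 36 members. These counts were made for the members only, without the share over all tested genes. Coregulated members shift together with a library, so the counts describe libraries more than single genes.

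Without cKO replicate 1, 13 of 50 members (26%) were lower with a limma adjusted p under 0.05, where 1.45% of all tested genes were lower at that threshold. They were Gmnn, Mcm4, Mcm5, Mcm6, Mcm10, Gins1, Gins2, Gins3, Fen1, Rrm1, Rrm2, Tk1 and Uhrf1, with limma adjusted p from 0.0201 to 0.0484. Among them Rrm2 had a log2 fold change of -1.11, Tk1 of -1.11, Gmnn of -1.07 and Gins1 of -0.52. This library is singled out after its values were known, and nothing in the labels marks it as different. Without control replicate 2, and likewise without cKO replicate 3, 19 members in place of 29 were lower at an unadjusted p under 0.05. All tested genes at that threshold, in either direction, fell as well, from 1521 to 929 and 852. The fall was therefore not particular to the members.

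Sex was not balanced between the groups by Y-linked expression, and how much of the result goes with it was not tested. With a Y-linked covariate, 29 members were lower at an unadjusted p under 0.05, with a median of -0.32 and 0 limma adjusted p under 0.05. In that fit 1219 of all tested genes had an unadjusted p under 0.05, in either direction. Between the 1 control and 2 cKO libraries that expressed Y-linked genes, the median member difference was -0.27. Between the 2 control and 1 cKO libraries without that expression it was -0.41. Each split has a group with a single library, whose own level shifts coregulated members together, so no test was run within these splits. By promoter letters, the 17 members with E2F letters had a median log2 fold change of -0.33 with 15 below 0, and the 25 with a window but no such letters had -0.27 with 23 below 0.

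Further genes of the same processes were read from lists that hold none of the 50 members, and 0 of them had a limma adjusted p under 0.05. Of 31 other fork and origin genes, 29 were tested, with a median log2 fold change of -0.24 beside -0.02 over all tested genes. At an unadjusted p under 0.05, 14 were lower and 1 was higher, where 7.76% of all tested genes were lower and 5.37% higher. Ticrr and Dna2 had too low an FPKM to be tested. Pclaf, a PCNA partner, had a log2 fold change of -0.74, the topoisomerase Top2a of -0.62, the origin-firing kinase Cdc7 of -0.47, the clamp-loader gene Chtf18 of -0.46 and the fork gene Wdhd1 of -0.42. The checkpoint and firing factor Topbp1 had -0.39, the PCNA ubiquitin ligase Rad18 had -0.32 and the fork protein Donson had -0.29. The gene that was higher was Pold4, the small subunit of polymerase delta, with 0.19. It was named after its value was seen. Its group means of 52.3 and 59.8 FPKM stand opposite to those of Pold1, Pold2 and Pold3.

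Of 25 genes of nucleotide synthesis outside the members, 5 were lower and 1 was higher at an unadjusted p under 0.05, where 7.76% of all tested genes were lower and 5.37% higher. The log2 fold change was below 0 in 18 of 25, against 55.8% of tested genes, with a median of -0.04 beside -0.02 over all tested genes. Among those lower were the kinases Dck (-0.36), Nme1 (-0.34) and Dtymk (-0.29) and Umps of pyrimidine synthesis (-0.21), and the gene that was higher was Rrm2b (0.21). Nme1 has a near-identical neighbour, Nme2, and reads may have been split between them in a way the table does not show. The 10 purine synthesis genes of this list, grouped after their values were seen, had log2 fold changes from -0.10 to 0.03, with a median of -0.03 and 0 at an unadjusted p under 0.05. Of 10 other chromatin genes that act with replication, the median was -0.19. At an unadjusted p under 0.05, 6 were lower and 0 were higher, against 7.76% and 5.37% of all tested genes. Those lower were the histone chaperones Asf1b (-0.72) and Nasp (-0.43), the remodeller Hells (-0.50), the histone mRNA binder Slbp (-0.28), Rbbp7 (-0.24) and the FACT subunit Ssrp1 (-0.14).

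Genes of mitosis, the other main wave of cell cycle expression, were set beside the replication genes. All 30 had a log2 fold change below 0 (against 55.8% of tested genes), with a median of -0.56, and 0 had a limma adjusted p under 0.05. At an unadjusted p under 0.05, 27 were lower, against 7.76% of tested genes. In 12 every cKO library lay below every control library, against 11.8% of tested genes. Their library medians were 0.27, 0.44 and 0.14 in control and 0.15, -0.46 and -0.52 in cKO replicates 1, 2 and 3. In mitosis genes cKO replicate 1 therefore stood at the level of control replicate 3, while in the replication members it stood below all 3 controls. Other fork and origin genes had medians of 0.05, 0.20 and 0.08 against 0.03, -0.18 and -0.17, and other nucleotide genes of 0.03, 0.01 and 0.04 against -0.03, -0.01 and -0.08. The difference between the lists was not tested.

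**Figure D4:**
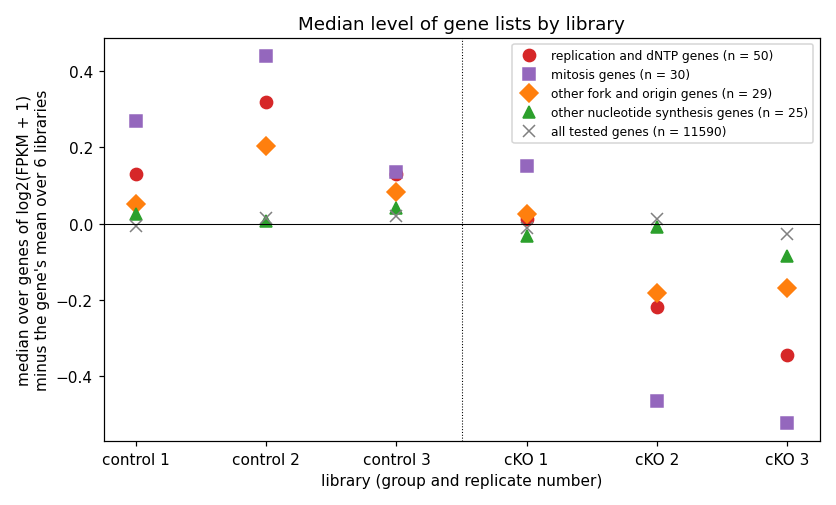
Median over the genes of each list of log2(FPKM + 1), centred on each gene's mean over the 6 libraries (vertical axis), by library (horizontal axis). The replication members run from 0.32 in control replicate 2 to -0.34 in cKO replicate 3, mitosis genes cover a wider range from 0.44 to -0.52, and all tested genes stay between -0.03 and 0.02.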

How the data were processed

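RNA of 6 libraries (3 control, 3 cKO) from cultured calvarial preosteoblasts was enriched for polyA and sequenced by the authors as 150 bp paired-end reads. The authors deposited FPKM values, 1 per gene and library with 2 decimals. HISAT2, DESeq and the build GRCm38 are listed in the submitters' processing notes. FPKM values do not carry a DESeq normalization, and the program that computed them and the annotation release are not given in the sources used here. FPKM is no count, so no count test was run, and the depth of the libraries is unknown from these values. No column of per-sample values was left out.

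Groups were compared on log2(FPKM + 1) by a two-sided moderated test without covariates (R 4.3.3, limma 3.58.1, Benjamini-Hochberg adjustment). Genes had to reach 1 FPKM in 3 or more libraries, which left 11590 of 17001 genes. Adjusted p-values cover all tested genes. Fold changes on this scale understate differences of low genes. Values per library were given for Nell2 and, in each of 6 role groups, for members with an unadjusted p under 0.05 and the 3 with the largest absolute fold change (2 in groups of under 6). Outside this rule, values per library were also given for Cdt1, Orc3, Orc6, Gins1, Pold2, Rpa3, Pcna, Tyms and Dut. Further members were described by fold change or level. Of each further gene list, up to 8 genes with an unadjusted p under 0.05 were named by smallest p, and subunits were named where a complex was compared by level. Other genes were named after their values were seen. A gene of the nucleotide synthesis list is not reported here by name. The members, lists and tests were chosen with earlier results of these data known. Pseudocounts of 0.1 and 0.5, other filters, a variance trend, upper quartile and quantile scaling, a replicate block, a Y-linked covariate and leaving out each library were tried as alternatives.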

Additional observations from a re-analysis of the deposited data

How the results depend on the processing

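No member had an adjusted p under 0.05 under the 9 alternatives that kept all libraries, and 28 to 30 members were lower at an unadjusted p under 0.05 (29 as reported). Their median log2 fold change lay between -0.41 (pseudocount of 0.1) and -0.31 (upper quartile scaling). With each library left out in turn, members with a limma adjusted p under 0.05 numbered 0 to 13 and all such genes 0 to 324, the 13 and 324 without cKO replicate 1 and 2 genes without control replicate 3. Members lower at an unadjusted p under 0.05 then numbered 19 to 35. All tested genes with such a p, in either direction, numbered 852 to 2461. The median over members was -0.42 to -0.26. No member was higher at that threshold in any of these fits. The sign turned for Orc2 with upper quartile scaling (0.0018) and the Y-linked covariate (0.040), and, with a library left out, for Orc2 (-0.092 to 0.034), Dut (-0.14 to 0.13), Rpa3 (-0.20 to 0.054) and Rfc4 (-0.22 to 0.0080). The cause was not tested.

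With the replicate number as a replicate block, 29 members were lower at an unadjusted p under 0.05 and the median was -0.33, with 0 adjusted p under 0.05. Deviations from the group mean had correlations of 0.031, -0.166 and 0.21 between libraries of the same number. The mean correlation was 0.025 for these pairs and -0.014 for the other pairs. The labels do not tell whether equal numbers mark a shared litter, culture or batch. Deviations within groups of 3 libraries cannot decide it. The unknown depth and 3 libraries a group limit the precision.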
